A study of Danio rerio with 24 samples.

Results

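The long arm of zebrafish chromosome 4 was taken as all annotated genes of that chromosome with a start above position 27000000 of the GRCz11 build. It held 1653 of the 32520 annotated genes, of which 773 were among the 23219 genes of the deposited count table and 698 had enough reads to be tested. Position alone chose the members, and no measured value entered the rule. RNA of whole embryos was sequenced after polyA selection, from wild type embryos and from maternal eevs mutants, called Meevs. Embryos of both genotypes were mock treated or given 450 J of UVB (no area is stated) and were kept in the dark before and after. They were collected 5 h or 24 h later, at 29 or 48 hours post fertilisation (hpf). The 8 groups were wild type mock at 5 h, wild type UVB at 5 h, wild type mock at 24 h, wild type UVB at 24 h, and the same 4 for Meevs, with 3 libraries each and 24 in all. The labels give neither the strain, the allele nor the zygotic genotype of the Meevs embryos, and they do not say whether replicates are separate clutches, so p-values measure the spread between these libraries, which may be technical. All 12 wild type libraries carry the identifiers of 1 library series and all 12 Meevs libraries those of another, so genotype and library series cannot be told apart in any genotype difference below.

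The eevs gene encodes an enzyme of gadusol synthesis, and gadusol is a compound that absorbs UVB and is supplied to the egg by the mother. The long arm of chromosome 4 is known as a largely heterochromatic, late replicating part of the zebrafish genome. It is crowded with tandem copies of C2H2 zinc finger genes, NLR genes (the fish family of NOD-like immune receptors), 5S ribosomal RNA and spliceosomal RNA genes, and holds few genes with a mammalian counterpart. Its zinc finger genes are known for transcription early in embryonic genome activation. As RNA came from whole embryos, fewer cells that express a gene and less RNA per cell cannot be told apart.

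The libraries held from 22395870 to 44691629 counts, of which the members took 56262 to 119736. Between 460 and 646 members had at least 10 counts in a library. Markers of heart, muscle, neurons, skin, blood, lens, leukocytes, pigment cells, cartilage and endothelium were all detected, as whole embryos should give. The targeted gene, eevs on chromosome 6, does not check the genotype labels, because it was not lower in Meevs. Its mean in the wild type groups lay between 0.216 and 0.712 CPM (counts scaled to library size). In Meevs it was 0.211 ± 0.102 CPM (SD, n = 3) in mock and 2.22 ± 0.276 in UVB at 5 h, and 2.53 ± 0.885 in mock and 0.663 ± 0.158 in UVB at 24 h.

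The arm was dense in genes and thin in reads. Of its members 46.8% were in the count table, against 79.8% for the rest of chromosome 4 and 72.5% for the other chromosomes. The annotation lists 896 members as protein coding, of which 705 were counted, whereas none of 392 snRNA and 59 miRNA members and 1 of 42 rRNA members was. The median of the members' mean level was -0.12 log2 CPM, against 3.60 for the rest of chromosome 4 and 3.18 for the other chromosomes. These levels are not per transcript length and describe the reads available to each test. Zinc finger genes made up 165 of the 698 tested members (23.6%), and those were 26.6% of the 621 zinc finger genes tested in the whole table. A gene was put in this class by a symbol starting with znf or zfp, or by a description holding zinc finger. The class thus takes in other kinds of zinc finger gene, such as zbed4 on the arm, and leaves out placeholder genes without such a description. A further 476 carried only a clone-based placeholder name, 55 had another gene name and 2 were NLR genes. Annotated positions of 294 tested members overlap another gene, 156 of them on the opposite strand, and 264 members share their symbol with another member. Copies this alike can split or share reads, so the value of any single zinc finger, NLR or ms4a17a gene below is uncertain to that extent.

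Along the arm 3 zones were told apart, with bounds at 28.5 and 71.9 Mb. No rule for these bounds is given, so differences between zones are a description. The proximal edge held 17 tested members with starts from 27018663 to 28473223, the middle 502 with starts from 28542021 to 71896596, and the distal end 179 with starts from 71953615 to 78058635. The middle held 150 of the 165 tested zinc finger genes. Among all annotated members, tested or not, 5 with a gene name outside the zinc finger, NLR and placeholder classes lay in the middle. The other zones held 11 such members (proximal edge) and 55 (distal end). Members with the most reads were in those zones too: the 2 copies of cct2 (a subunit of the TRiC chaperonin), ckap4 (an endoplasmic reticulum protein), nup50 (a nuclear pore protein), pacsin2 (a membrane-bending protein of endocytosis), ikbip, AL935186.10 and AL935186.11, celsr1a (a cadherin of planar cell polarity) and zbed4 (a BED zinc finger protein). For cct2 (ENSDARG00000104674, chromosome 4, 78022547 to 78026285) the level was 265, 270 and 274 CPM in wild type mock at 5 h and 374, 369 and 471 CPM in Meevs mock at 5 h. The 3 tested genes nearest to the boundary inside were creld2, alg12 and zbed4, with means of 16.4, 13.5 and 42.0 CPM over all libraries, and those nearest outside were tnni1d, b4galnt3a and iqsec3a, with 6.71, 0.533 and 10.5 CPM.

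A first question was how the arm differed between the genotypes. Of the 698 tested members, 109 were higher and 120 lower in Meevs than in wild type in mock embryos at 5 h (32.8%, edgeR's quasi-likelihood test at a Benjamini-Hochberg adjusted p under 0.05 over 22340 genes). Over all tested genes the share called was 47.7%, with 24.5% higher and 23.2% lower. At 24 h 121 were higher and 128 lower in mock embryos (35.7%, against 52.7% of all tested genes). Among UVB embryos 136 were higher and 115 lower at 5 h (36%, against 50.3%), and 128 were higher and 143 lower at 24 h (38.8%, against 55.8%). The share of members called was thus below the background in each of the 4 genotype contrasts. The median of the members' log2 fold changes was -0.06 in mock at 5 h, where chromosomes outside the arm ranged from 0.00 to 0.07. When genes with a mean under 0 log2 CPM were left out of the test, 81 members were higher and 69 lower in mock at 5 h, and 98 higher and 59 lower in mock at 24 h, so the split between directions depends on that filter.

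In mock at 5 h 21.5% of members differed by more than 2-fold, where 9.27% of all tested genes did and the 25 chromosomes outside the arm ranged from 5.94% to 11.5%. Low read numbers widen fold changes, so genes of like level were set side by side. Under -1 mean log2 CPM 32.4% of 222 members and 30.9% of 2125 genes outside the arm differed by more than 2-fold. Between -1 and 0 the shares were 21.2% and 17.3%, between 0 and 1 21.2% of 132 and 14% of 1827, between 1 and 2 12.2% and 10.4%, and between 2 and 4 7.5% and 5.9%, where the median absolute change was 0.27 for members and 0.34 outside. Called between 0 and 1 were 37.1% of members and 30.2% of genes outside. Between 1 and 2 the shares called were 52% of 98 members and 38.9% of 2143 genes outside, and between 2 and 4 they were 37.5% of 80 and 54.2% of 5677. The spread between replicates was close at like level: the median SD between 0 and 1 was 0.33 log2 CPM for members and 0.31 outside. Of the 698 tested members, 563 reached the filter level of 0.34 CPM in at least 3 libraries of both genotypes, 91 did so in wild type alone and 27 in Meevs alone. Members that passed through 1 genotype only had to differ, so their calls are a description. No member was under 0.05 CPM in every group of 1 genotype and over 0.5 CPM in a group of the other.

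**Figure D1:**
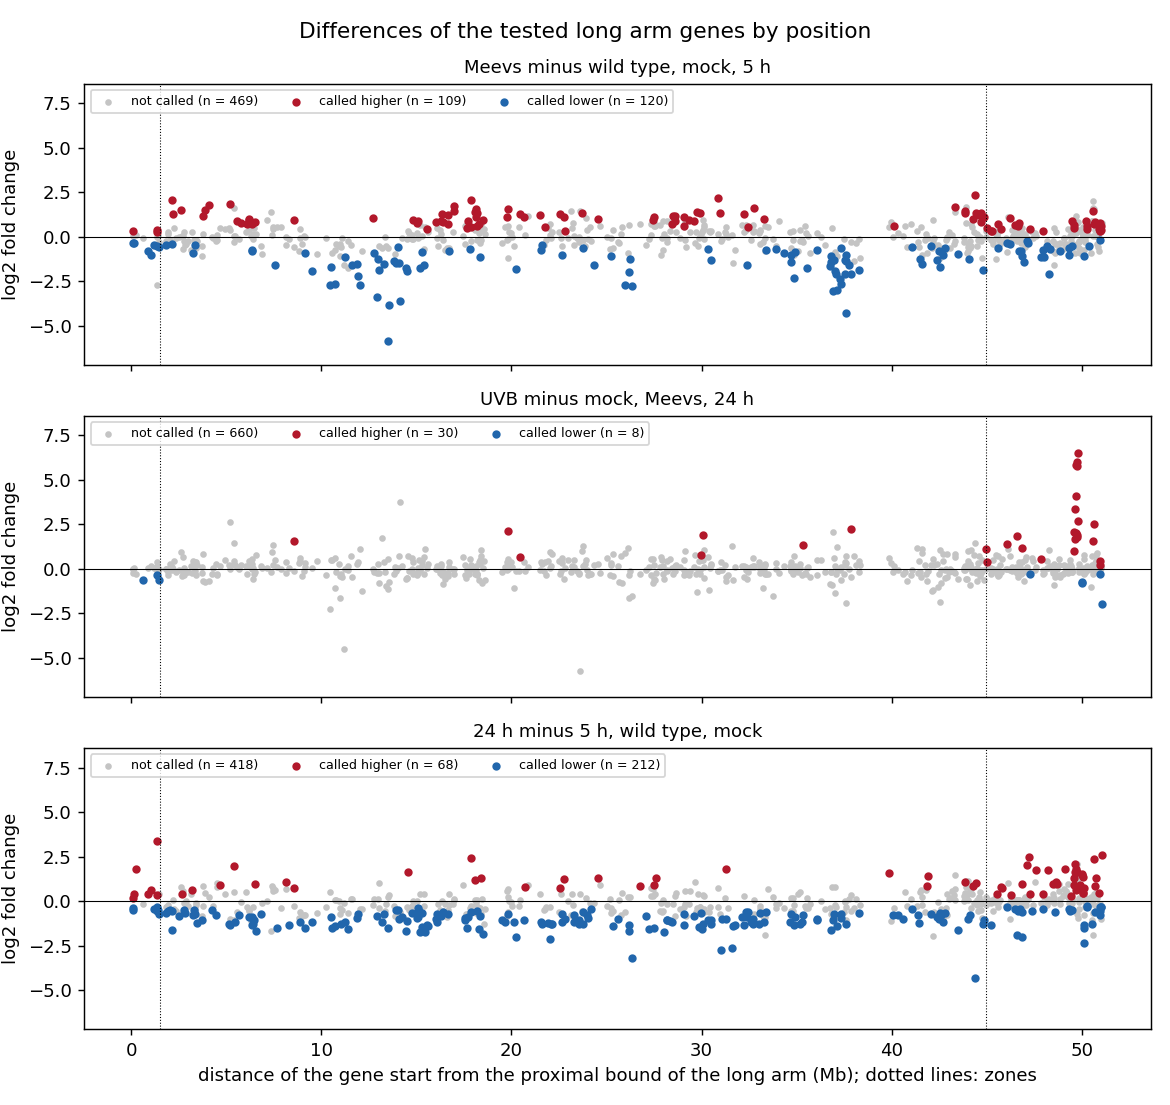
Log2 fold change of each of the 698 tested members against the distance of its start from the proximal bound of the arm in Mb, for Meevs minus wild type in mock at 5 h (top), UVB minus mock in Meevs at 24 h (middle) and 24 h minus 5 h in wild type mock (bottom), with members called higher in red and called lower in blue. Of the members 109 were higher and 120 lower in the top panel, 30 and 8 in the middle panel, where the higher ones gather at the distal end, and 68 and 212 in the bottom panel.

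Genotype calls were unevenly spread along the arm. The arm was cut into windows of 5 Mb, counted from its boundary. In the window that starts 35 Mb from the boundary (62000001 to 67000000), 0 of 44 tested members were higher and 21 lower in Meevs mock at 5 h, with a median log2 fold change of -0.94. The counts were 1 and 26 in mock at 24 h, 2 and 20 in UVB at 5 h and 1 and 20 in UVB at 24 h. In this order of 4 contrasts the shares called in either direction were 47.7%, 61.4%, 50% and 47.7%. Over all tested genes they were 47.7%, 52.7%, 50.3% and 55.8%. In mock at 5 h 24.5% of all tested genes were higher and 23.2% lower, so the window differed from all tested genes by direction. Its share called equalled theirs, but the shares are not matched for level. Whether it differs from genes of like level was not tested. Summed over this window, the level in mock at 5 h was 40.4, 51.2 and 49.5 CPM in wild type and 27.8, 26.7 and 24.8 CPM in Meevs. In mock at 24 h the sums were 30.1, 30 and 31.5 CPM in wild type and 17, 15.3 and 15.4 CPM in Meevs. Libraries of the 2 genotypes did not overlap at either time, but the window was singled out by calls between these same libraries, so this is a description. A run of 7 neighbouring tested members, from BX936382.1 to znf988 (64530121 to 64871624), was lower in Meevs in mock at both times. Some lower members of this window, such as si:ch211-223a21.3 and si:ch211-223a21.6 in this run, stayed below 0.34 CPM in every Meevs library. They passed the filter only through wild type, so they had to be lower, and they were not taken out of these counts.

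The window 10 Mb from the boundary (37000001 to 42000000) held 2 higher and 22 lower members of 51 in mock at 5 h (median -0.91) and 1 and 24 in mock at 24 h. Its summed level at 5 h was 53.8, 67.3 and 62.8 CPM in wild type mock and 43.2, 36.8 and 40.4 CPM in Meevs mock. The window next to it, 15 Mb from the boundary (42000001 to 47000000), went the other way, with 24 higher and 6 lower of 71 in mock at 5 h (median 0.38) and 27 and 7 in mock at 24 h. There the sums at 5 h were 117, 95.5 and 116 CPM in wild type mock and 145, 144 and 143 CPM in Meevs mock, again without overlap. The shares called in mock at 5 h and 24 h were 47.1% and 49% in the window at 10 Mb. They were 42.3% and 47.9% in that at 15 Mb, against 47.7% and 52.7% of all tested genes, without matching for level. In the window at 50 Mb the calls were mostly higher too, with 13 higher and 3 lower of 49 in mock at 5 h and 15 and 3 in mock at 24 h. That at 25 Mb had 12 and 5 of 61 and that at 40 Mb 12 and 12 of 80 in mock at 5 h. These windows too were singled out by calls between the same libraries, so the lack of overlap in their sums is a description. Windows on other chromosomes were not compared. In the window at 10 Mb lower members such as BX901907.4 and znf979 likewise passed the filter only through wild type and were not taken out. Zinc finger members numbered 17 in the window at 35 Mb, 22 in that at 10 Mb and 18 in that at 15 Mb.

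**Figure D2:**
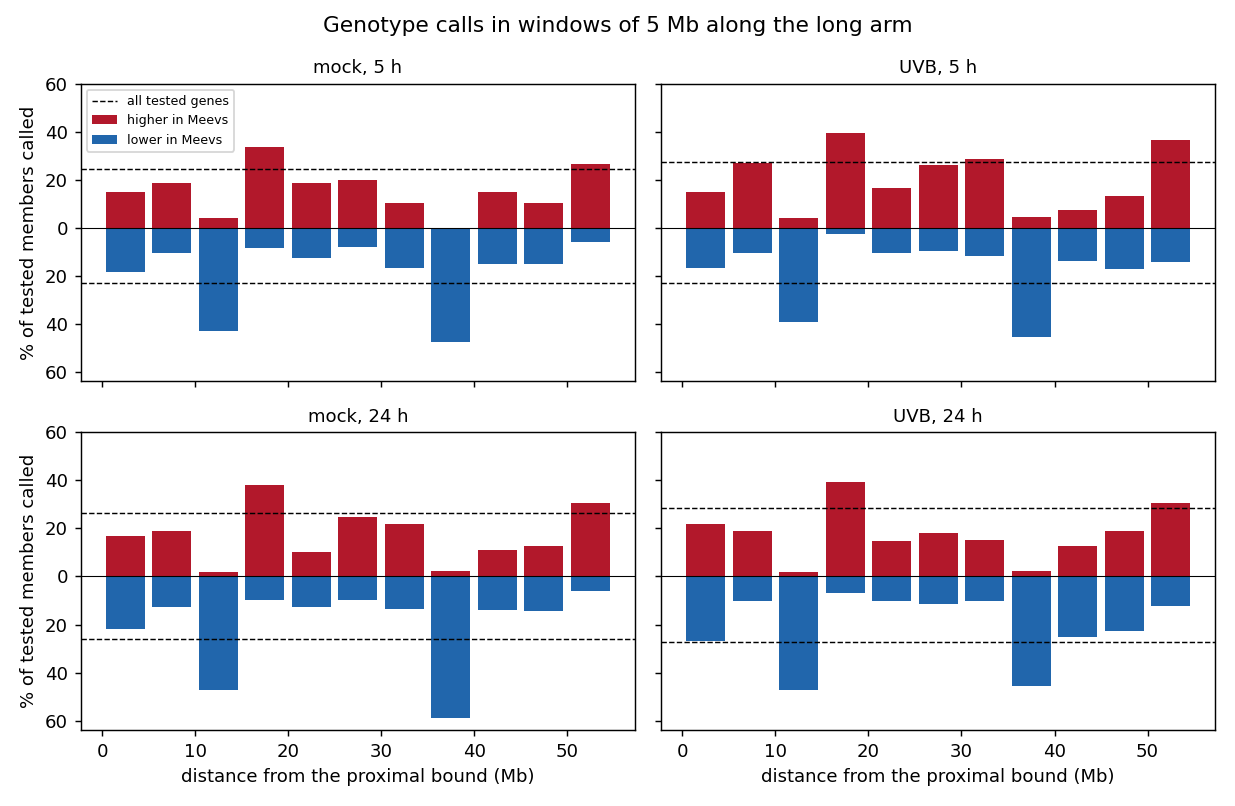
Share of tested members called higher (red, upwards) or lower (blue, downwards) in Meevs than in wild type in windows of 5 Mb along the arm, against the distance from its proximal bound in Mb, with the shares over all tested genes as dashed lines. Among the called members, those of the windows at 10 and 35 Mb are mostly lower and those of the windows at 15 and 50 Mb mostly higher in each of the 4 panels.

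The same direction was seen in all 4 genotype contrasts for 49 higher and 60 lower members (15.6% of 698, against 28.5% of genes outside the arm), and 437 members were called in at least 1 (62.6%, against 78.3% of genes outside). Of the lower ones 15 lay in the window at 35 Mb and 12 in that at 10 Mb, and of the higher ones 14 lay in the window at 15 Mb. Some members called in all 4, such as znf1147 among the lower and si:ch211-76m11.7 among the higher, passed the filter only through 1 genotype. Those had to differ, and they are included in these counts. By class, 10 zinc finger genes were higher and 24 lower, 27 placeholder genes were higher and 25 lower, and 12 other named genes were higher and 11 lower. In 26 of the 698 members every wild type library was above every Meevs library, which held for 4.73% of all tested genes, and in 11 every Meevs library was above every wild type library, which held for 2.95%. In 3 members the calls of different contrasts went in opposite directions.

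Among members lower in Meevs with enough reads to be named, crestin (chromosome 4, 47257854 to 47262290), a transcript that marks neural crest cells in zebrafish and stems from a repeated retroelement, had 9.80, 4.71 and 7.86 CPM in wild type mock at 5 h and 2.89, 2.07 and 1.35 CPM in Meevs mock. It differed by a log2 fold change of -1.81 ± 0.25 (SE; edgeR adjusted p = 2.29e-06). At 24 h it had 1.61, 1.84 and 2.09 CPM in wild type mock and 0.486, 0.409 and 0.521 CPM in Meevs mock (-1.98 ± 0.35, edgeR adjusted p = 4e-05). The genotypes did not overlap at either time, as the choice of named genes required.

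Several zinc finger genes that were lower in Meevs lay in or next to the lowered windows, but others did not, such as LO018181.1 in the distal end (-1.42 in mock at 5 h). For znf1127 (38876767 to 38877924) the level in mock at 5 h was 2.43, 3.35 and 2.67 CPM in wild type and 1.12, 0.827 and 0.953 CPM in Meevs, a log2 fold change of -1.53 ± 0.21 (edgeR adjusted p = 2.12e-06). At 24 h the same gene differed by -1.99 ± 0.25 (edgeR adjusted p = 4.9e-07). BX649453.1, named a zinc finger gene in the annotation and overlapping a gene on the opposite strand, had 4.13, 6.15 and 4.89 CPM in wild type and 1.64, 0.873 and 1.40 CPM in Meevs at 5 h (-1.95 ± 0.26, edgeR adjusted p = 1.33e-06). Smaller differences were measured for znf1136 (-1.46 ± 0.20), 1 copy of znf1102 (ENSDARG00000110787, -1.51 ± 0.24), and, at 24 h, znf1093 (-1.49 ± 0.30), each called. Outside the middle, PHF21B (a PHD finger protein) was lower at 24 h, with a log2 fold change of -1.49 ± 0.15. Levels of PHF21B in mock at 24 h were 18.1, 17.8 and 15.5 CPM in wild type and 5.72, 5.80 and 6.91 CPM in Meevs.

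The members that were lowest by fitted fold change had few reads. BX901907.4 had 93 counts over the 12 wild type libraries and 4 over the 12 Meevs libraries, 9 of which were at 0. The totals were 99 and 4 for si:ch211-223a21.6, and 129 and 9 for znf1062. For znf979 they were 446 and 37, and for znf1089 in the window at 35 Mb 761 and 72. The first 4 of these were below 0.34 CPM in every Meevs library and passed the filter only through the wild type libraries, so they had to differ and their values are a description. In the opposite direction si:ch211-76m11.7 had 18 counts over the wild type libraries and 118 over the Meevs libraries, and passed only through the Meevs libraries.

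Among members higher in Meevs, CR388132.1 (29139757 to 29142639), a long intergenic noncoding RNA, had 1.41, 1.64 and 1.96 CPM in wild type mock at 5 h and 5.00, 5.79 and 9.88 CPM in Meevs mock (2.04 ± 0.28, edgeR adjusted p = 1.48e-06). At 24 h it had 0.484, 0.540 and 0.602 CPM against 0.972, 1.05 and 0.999 CPM, which did not pass (0.90 ± 0.38, edgeR adjusted p = 0.0507). After UVB at 5 h it fell in Meevs, to 2.5, 1.7 and 3.33 CPM (-1.48 ± 0.26, edgeR adjusted p = 7.6e-05), and its change in wild type was 0.08 ± 0.30. The placeholder gene si:ch211-215p11.3 (46812891 to 46828780) had 0.806, 0.699 and 0.634 CPM in wild type mock at 24 h and 3.25, 3.37 and 3.48 CPM in Meevs mock (2.22 ± 0.25, edgeR adjusted p = 1.01e-07), and it was called at 5 h too (1.56 ± 0.25). It overlaps a gene on the opposite strand, and the labels do not say whether counting used the strand. The zinc finger gene znf1068 had 1.57, 0.102 and 1.80 CPM in wild type mock and 3.49, 3.77 and 3.41 CPM in Meevs mock at 5 h (1.62 ± 0.37, edgeR adjusted p = 0.000642). Its second wild type replicate had only 3 counts, and at 24 h the difference was 1.43 ± 0.40. A further member, si:dkey-51d8.9, had 0.993, 0.478 and 0.865 CPM in wild type and 1.90, 2.34 and 2.56 CPM in Meevs at 5 h (1.53 ± 0.37, edgeR adjusted p = 0.00139).

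**Figure D3:**
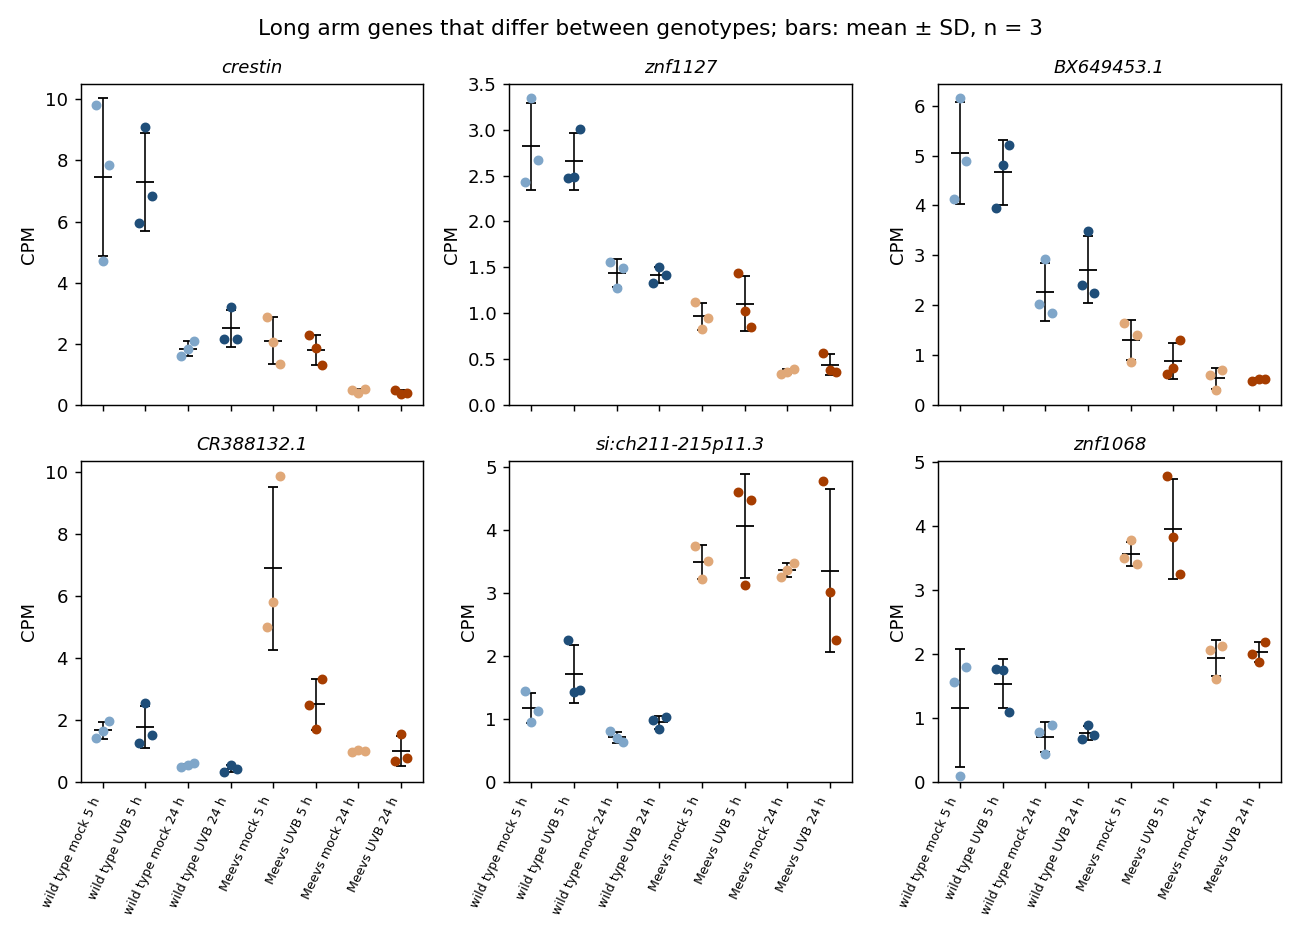
Level in CPM of 6 members in each of the 24 libraries by group (points), with the mean and SD of 3 libraries (bars); blue is wild type, orange Meevs, and dark shades are UVB. crestin, znf1127 and BX649453.1 are lower in Meevs than in wild type at each time, si:ch211-215p11.3 and znf1068 are higher, and CR388132.1 is highest in Meevs mock at 5 h.

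In mock embryos zinc finger genes as a class were lower more often than higher in Meevs, on the arm as elsewhere. In mock at 5 h 21 of the 165 arm zinc finger genes were higher and 45 lower (median -0.21), and on the other chromosomes 55 of 452 were higher and 174 lower. At 24 h the arm counts were 19 and 47, and those on the other chromosomes 61 and 186. Over all tested genes 24.5% were higher and 23.2% lower in mock at 5 h, and 26.5% and 26.2% in mock at 24 h. In UVB embryos at 5 h the arm split was 31 higher and 33 lower. Among the lower arm genes, znf1062, znf979, znf1147 and znf1050 stayed below 0.34 CPM in every Meevs library. Such genes passed the filter only through wild type and could only be lower, and they were not taken out of these counts. A list of 27 heterochromatin genes (HP1 proteins, histone H3 lysine 9 methyltransferases, lamins and others, all tested) had 4 higher and 9 lower in mock at 5 h and 5 and 9 in mock at 24 h, shares near the 47.7% and 52.7% of all tested genes. Among them lmnb2, a lamin of the nuclear envelope, was lower by -0.95 ± 0.06 at 5 h (edgeR adjusted p = 5.64e-11), and ehmt1b, a histone methyltransferase, by -0.35 ± 0.06 (edgeR adjusted p = 2.99e-05).

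A smaller share of members than of all tested genes was called after UVB. In wild type at 5 h 10 members were higher and 14 lower (3.44%, against 12.7% of all tested genes). At 24 h 9 were higher and 0 lower by edgeR and by DESeq2 (1.29%, against 2.24%, of which 1.74% were higher and 0.506% lower), and 12 were lower at an unadjusted p under 0.05. In Meevs at 5 h 45 were higher and 44 lower (12.8%, against 34.4%), and at 24 h 30 were higher and 8 lower (5.44%, against 20.4%, of which 11.5% were higher and 8.84% lower). Chromosomes outside the arm ranged from 0.958% to 4.05% called in wild type at 24 h, so the arm lay within their range there. Shares over 2-fold were not smaller on the arm. In wild type they were 3.72% against 3.06% at 5 h and 3.72% against 1.85% at 24 h. In Meevs they were 9.03% against 7.53% and 9.89% against 5.76%. Low read numbers widen fold changes. At like level fewer members than other genes were called in Meevs at 24 h: between 1 and 2 mean log2 CPM 3.06% against 20.3%, and between 2 and 4 7.5% against 22.7%. For 5 h no shares at like level are given, so fewer reads and fewer changes are not separated there. All 9 calls in wild type at 24 h and 23 of the 30 higher ones in Meevs lay in the distal end, which holds 179 of the tested members. With DESeq2's size factors the Meevs calls at 24 h were 29 higher and 14 lower, and with genes under 0 log2 CPM left out 12 and 13. The count in wild type at 5 h fell to 9 without the first UVB replicate and to 13 when only the 2 groups compared were fitted. Of its higher calls, AL935186.7, AL935186.9, AL935186.10 and AL935186.11 did not pass without the second UVB replicate. The count in Meevs at 5 h fell to 51 without the first Meevs UVB replicate, and that in Meevs at 24 h to 24 without the second Meevs mock replicate.

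Among the members that rose after UVB at 24 h were 12 ms4a17a genes of the 30 called in Meevs and 5 of the 9 called in wild type. They are a tandem family of membrane-spanning proteins related to mammalian CD20. Of the 15 genes 13 were tested, with a median log2 fold change of 2.10 in Meevs at 24 h. They form most of a run of 13 neighbouring tested members called higher, from ms4a17a.11 to ms4a17a.5 (76575585 to 76808437). The level of ms4a17a.11 at 24 h was 12.5, 11.9 and 11.4 CPM in wild type mock and 26.4, 24.2 and 21.0 CPM in wild type UVB. In Meevs it was 15, 15.8 and 16.6 CPM in mock and 70.8, 70.0 and 62.7 CPM in UVB. The gene was higher in UVB than in mock in both genotypes. The change was 1.0 ± 0.12 in wild type (edgeR adjusted p = 2.86e-06) and 2.10 ± 0.12 in Meevs (edgeR adjusted p = 2.02e-13). The difference between these effects was 1.1 ± 0.16 (edgeR's interaction test, adjusted p = 0.000148).

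For ms4a17a.7 the level at 24 h was 3.55, 2.92 and 3.20 CPM in wild type mock and 5.17, 4.89 and 5.23 CPM in wild type UVB. In Meevs it was 3.59, 3.91 and 3.74 CPM in mock and 16.2, 14.5 and 15.3 CPM in UVB. The change was 0.66 ± 0.14 in wild type (edgeR adjusted p = 0.00773) and 2.03 ± 0.14 in Meevs, and the interaction was 1.37 (edgeR adjusted p = 9.29e-05). At 5 h this gene fell in wild type by 0.64 ± 0.18 on the log2 scale (edgeR adjusted p = 0.0165). ms4a17a.2 was low in Meevs mock at 24 h, with 0.224, 0.281 and 0.130 CPM, and had 12.6, 13.1 and 12.9 CPM in Meevs UVB (5.82 ± 0.26). ms4a17a.9 had 22.5, 25.1 and 21.5 CPM in Meevs mock and 49.6, 47.7 and 42.3 CPM in Meevs UVB (1.01 ± 0.10). In wild type its difference of 0.33 ± 0.10 did not pass by edgeR (adjusted p = 0.101). Of the 13 tested family members 7 had a larger UVB effect in Meevs at 24 h by the interaction test, where 2.4% of all tested genes were called in either direction. At 5 h none of the 13 was called higher after UVB in either genotype by edgeR.

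Within the same stretch, si:ch73-56d11.5 (76775837 to 76785895) rose at both times in Meevs. At 5 h it had 0.949, 1.38 and 1.05 CPM in Meevs mock and 8.72, 6.16 and 5.77 CPM in Meevs UVB (2.61 ± 0.27, edgeR adjusted p = 2.12e-08). At 24 h it had 1.5, 1.56 and 0.956 CPM in mock and 8.78, 11.1 and 7.04 CPM in UVB (2.7 ± 0.25). In wild type the change was 1.18 ± 0.32 at 5 h (edgeR adjusted p = 0.0154), a call that was lost without mock replicate 2 or 3, without UVB replicate 1 and with only the groups compared, and at 24 h the difference of 0.81 did not pass (edgeR adjusted p = 0.144). The interaction was called at 24 h (1.89, edgeR adjusted p = 0.004) and not at 5 h (1.42, edgeR adjusted p = 0.0617).

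Among the members that fell at 5 h, several had conventional names. Of all tested genes 5.12% had a UVB effect at 5 h that differed between genotypes by the interaction test, and of the members 3 were higher and 5 lower in Meevs. CPNE8 (copine 8, of a family of calcium-dependent membrane-binding proteins) had 15, 17.4 and 12.8 CPM in wild type mock and 5.95, 9.22 and 8.49 CPM in wild type UVB (-0.94 ± 0.15, edgeR adjusted p = 9.23e-05). In Meevs it had 7.50, 10.3 and 10.3 CPM in mock and 1.91, 1.87 and 1.46 CPM in UVB (-2.40 ± 0.19, edgeR adjusted p = 1.54e-10), and the fall was larger there (interaction -1.47 ± 0.24, adjusted p = 0.000337). tbc1d22a, which encodes a TBC domain protein, a class of Rab GTPase activators, had 8.97, 10 and 9.43 CPM in Meevs mock and 2.10, 1.97 and 1.83 CPM in Meevs UVB at 5 h (-2.26 ± 0.11, adjusted p = 1.32e-14 by edgeR). The gene also fell in wild type, by 0.67 ± 0.09 on the log2 scale, and the interaction was -1.60 ± 0.14 (edgeR adjusted p = 5.01e-08). Among placeholder genes si:dkey-165o8.2 fell in wild type (-1.33 ± 0.27) and Meevs (-2.18 ± 0.35), and so did si:dkeyp-82b4.2 (-0.96 ± 0.25 and -1.89 ± 0.33). tafa5a, a secreted protein of the nervous system, fell by 0.87 ± 0.24 in wild type and 0.75 ± 0.25 in Meevs. Of 94 members longer than 50 kb 6 were lower and 4 higher in Meevs at 5 h, while outside the arm 1570 of 3994 such genes were lower and 176 higher. These counts are not matched for level. The median log2 fold changes were -0.01 for the long members and -0.27 for the long genes outside.

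**Figure D4:**
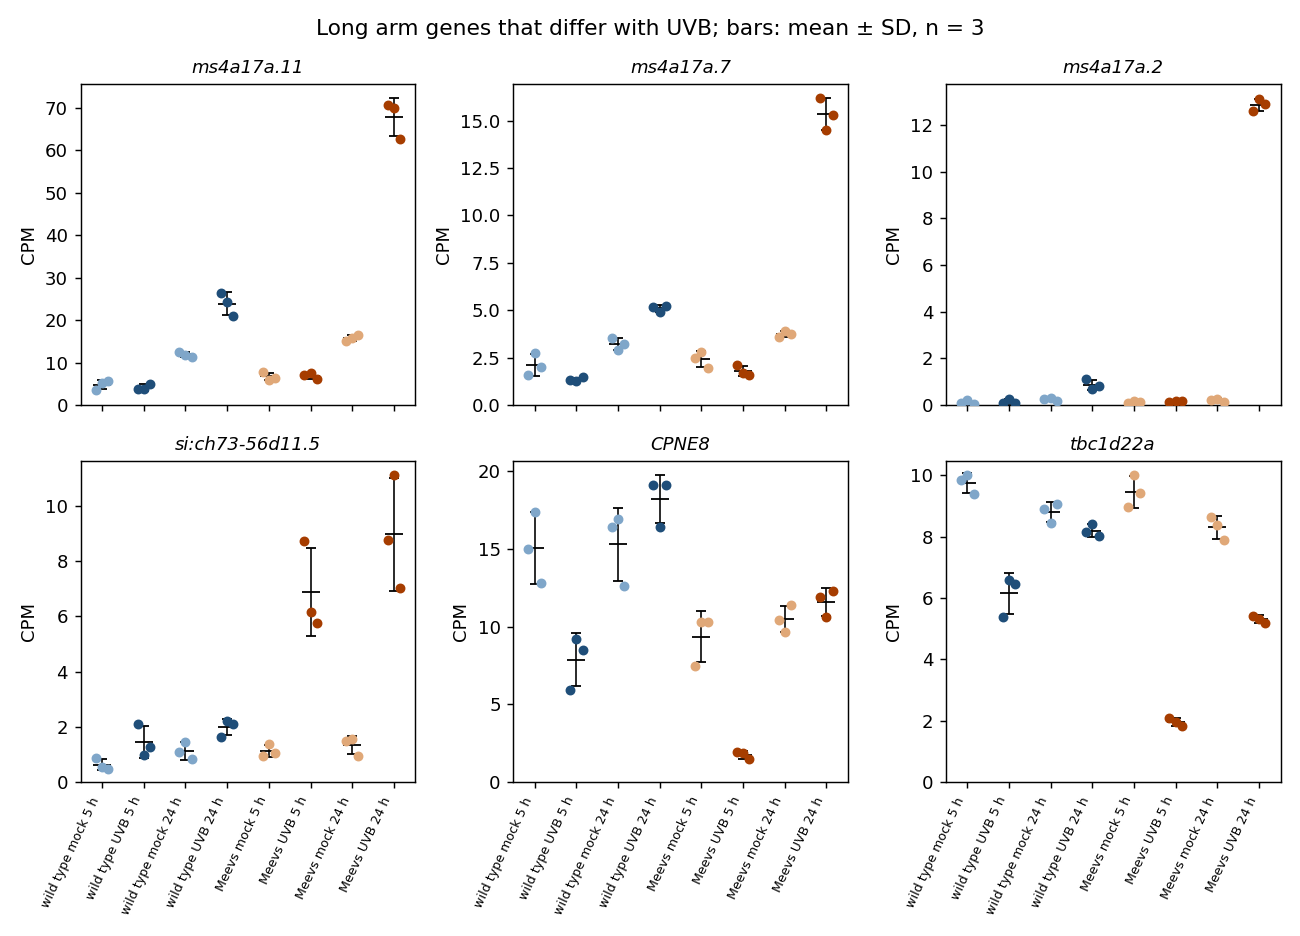
Level in CPM of 6 members in each of the 24 libraries by group (points), with the mean and SD of 3 libraries (bars); blue is wild type, orange Meevs, and dark shades are UVB. The ms4a17a genes are highest in Meevs UVB at 24 h, si:ch73-56d11.5 is high in Meevs UVB at both times, and CPNE8 and tbc1d22a are lowest in Meevs UVB at 5 h.

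Few of the arm zinc finger genes were called with UVB. In Meevs at 5 h 16 of 165 were higher and 3 lower, and their median log2 fold change of 0.24 was close to the 0.22 of zinc finger genes on the other chromosomes, where 156 of 452 were higher and 33 lower. In wild type at 5 h 0 of the arm zinc finger genes were higher and 1 lower. Over all tested genes 19.1% were higher and 15.3% lower in Meevs at 5 h, with a median of 0.05. The shares in wild type were 6.67% and 6.06%. These shares are not matched for level. Examples of the rise in Meevs at 5 h were znf1025, with 1.81, 1.79 and 1.71 CPM in mock and 3.46, 2.64 and 3.33 CPM in UVB (0.81 ± 0.20, edgeR adjusted p = 0.00248), and znf996 (1.04 ± 0.31, edgeR adjusted p = 0.00995). The call of znf996 was lost without replicate 3 of Meevs mock or of Meevs UVB. For 1 copy of znf1102 (ENSDARG00000110787, 40295896 to 40337764) the genotypes went opposite ways at 5 h. It had 2.72, 2.90 and 3.50 CPM in wild type mock and 1.45, 1.40 and 1.90 CPM in wild type UVB (-0.92 ± 0.21, edgeR adjusted p = 0.00378), but 1.21, 1.1 and 0.853 CPM in Meevs mock and 1.84, 1.52 and 2.07 CPM in Meevs UVB (0.75 ± 0.25, edgeR adjusted p = 0.0209). The interaction was 1.67 ± 0.33 (edgeR adjusted p = 0.00218).

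Of the 27 heterochromatin genes 10 were higher and 2 lower after UVB in Meevs at 5 h. Over all tested genes 19.1% were higher and 15.3% lower there (34.4% in either direction). In wild type at 5 h 2 of the 27 were higher and 1 lower, where 6.67% of all tested genes were higher and 6.06% lower (12.7%).

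The UVB calls in wild type at 5 h of 4 neighbouring placeholder genes rest on 1 library. These genes are annotated as protein coding and lie around a counted rRNA gene, AL935186.2. In wild type at 5 h AL935186.7, AL935186.9, AL935186.10 and AL935186.11 were called higher after UVB, by 2.82 ± 0.71, 3.12 ± 0.75, 2.94 ± 0.61 and 1.80 ± 0.43. Without the second UVB replicate the differences were 0.79, 0.54, 0.59 and 0.35, and none passed (edgeR adjusted p from 0.255 to 0.541). In that library the 5 members of this stretch held 33.3% of the arm's counts, against 6.3% and 4.07% in the other two. The arm's share of all counts in wild type UVB at 5 h was 0.303% ± 0.0669 (SD, n = 3) with these members and 0.252% ± 0.00214 without them. In the other groups the share lay between 0.231% in wild type mock at 24 h and 0.276% in Meevs UVB at 5 h. That library is not in the groups compared for genotype in mock or in UVB at 24 h. There AL935186.10 was higher in Meevs by 1.47 in mock at 5 h, 1.73 in mock at 24 h and 2.12 in UVB at 24 h. With each library of the compared groups left out, these differences ranged from 1.27 to 1.75, 1.48 to 1.91 and 1.82 to 2.37. The genotype contrast in UVB at 5 h does include that library. There the 5 members summed to 173, 1229 and 105 CPM in wild type and 261, 184 and 248 CPM in Meevs.

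With age more members fell than rose. From 5 h to 24 h 68 members were higher and 212 lower in wild type mock (40.1%, against 63.7% of all tested genes, of which 30.2% were higher and 33.5% lower) and 56 were higher and 183 lower in Meevs mock (34.2%, against 60.2%). The counts were 98 and 241 in wild type UVB (48.6%, against 68.5%) and 89 and 251 in Meevs UVB (48.7%, against 68.8%). Median log2 fold changes of the arm were -0.31, -0.28, -0.31 and -0.39 in this order, and chromosomes outside the arm ranged from -0.08 to 0.07 in wild type mock. In wild type mock the middle had 25 higher and 178 lower members and a median of -0.49, and the distal end 36 higher and 26 lower and a median of 0.05. At low level the split outside the arm was the other way: between 0 and 1 mean log2 CPM 62 of 132 members were lower and 13 higher in wild type mock, while 318 of 1827 genes outside were lower and 740 higher. Between 2 and 4 the counts were 27 lower and 13 higher of 80 members, and 1880 lower and 1849 higher of 5677 genes outside. Over 4 they were 10 and 4 of 20 members, and 4180 and 1938 of 8214 genes outside. The genotype by time interaction in mock embryos gave 0 calls on the arm with edgeR and with DESeq2, 43 members at an unadjusted p under 0.05, and 2 calls by edgeR in the whole table (0.00895%).

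Many of the arm's zinc finger genes fell with age. In wild type mock 90 of 165 were lower and 6 higher at 24 h (median -0.70), and in Meevs mock 74 were lower and 4 higher. In the middle the wild type count was 86 lower and 1 higher of 150. Zinc finger genes of the other chromosomes were split, with 125 of 452 lower and 128 higher in wild type mock (median 0.00). The class goes by symbol and description, so the genes on the arm and elsewhere need not be of the same kinds. In all 4 time contrasts 47 arm zinc finger genes were lower (28.5%) and 0 higher. Of the 21642 genes outside the arm 4699 were lower in all 4 (21.7%) and 4610 higher. For the arm as a whole the share lower in all 4 was 15.5%. These shares are not matched for level. Summed over the 165 genes the level was 415 ± 14.9 CPM (SD, n = 3) in wild type mock at 5 h and 313 ± 5.92 CPM at 24 h. In Meevs mock it was 380 ± 7.14 CPM and 290 ± 13.2 CPM. The highest sum was in Meevs UVB at 5 h, 456 ± 24.3 CPM, and that in Meevs UVB at 24 h was 281 ± 3.86 CPM. Zinc finger genes elsewhere summed to 12795 ± 332 CPM in wild type mock at 5 h and 12673 ± 200 CPM at 24 h, which differ by less than the spread at 5 h. In the other pairs their sums were also lower at 24 h. In wild type UVB they were 13156 ± 131 and 12447 ± 126 CPM, in Meevs mock 10991 ± 258 and 10564 ± 179 CPM, and in Meevs UVB 12424 ± 114 and 10299 ± 387 CPM.

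**Figure D5:**
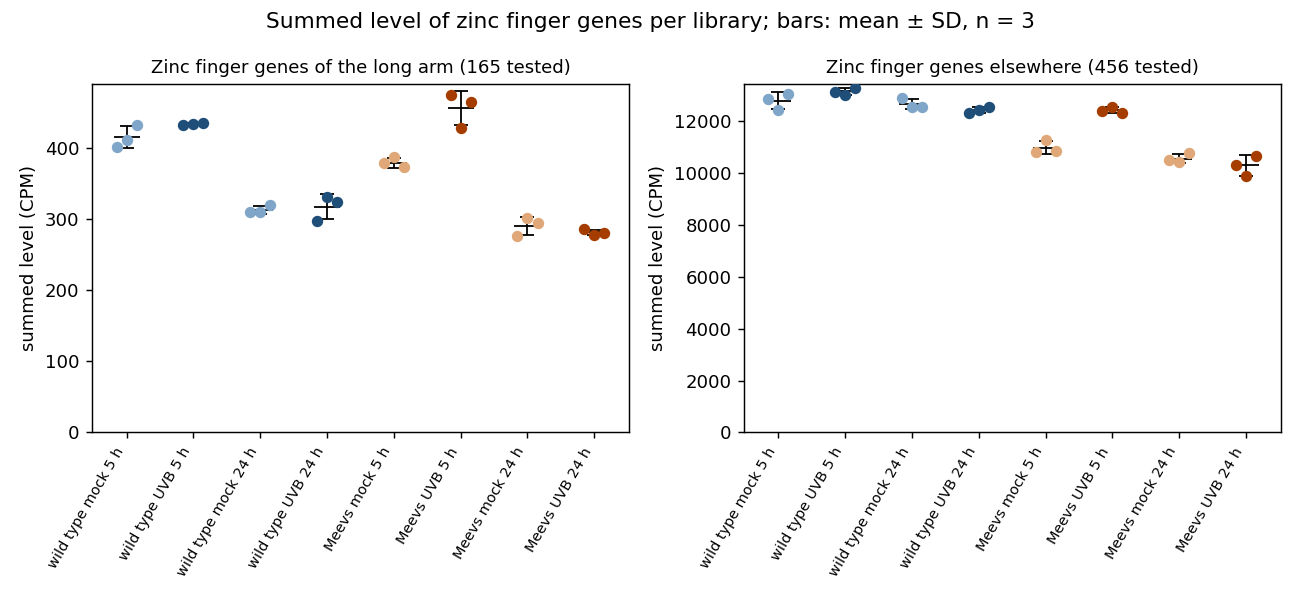
Summed level in CPM of the 165 tested zinc finger genes of the arm (left) and of the 456 tested elsewhere (right) in each library by group (points), with the mean and SD of 3 libraries (bars). Each 24 h mean lies below the 5 h mean of the same genotype and treatment in both panels, from 415 to 313 CPM on the arm and from 12795 to 12673 CPM elsewhere in wild type mock.

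Single fallers included znf1133 (56058846 to 56068511), with 1.89, 1.67 and 2.26 CPM at 5 h and 0.591, 0.922 and 0.792 CPM at 24 h in wild type mock (-1.34 ± 0.27, edgeR adjusted p = 9.28e-05). In Meevs mock it fell from 2.5, 3.17 and 2.86 CPM to 0.822, 0.715 and 0.999 CPM (-1.77 ± 0.27). crestin fell in wild type mock by 2.02 ± 0.24 on the log2 scale (edgeR adjusted p = 5.33e-08), from the levels given above, and CR388132.1 by 1.61 ± 0.36. The antisense RNA CABZ01069022.2 had 2.11, 1.74 and 2.07 CPM at 5 h and 0.376, 0.477 and 0.634 CPM at 24 h in wild type mock (-2.0 ± 0.26). It overlaps a gene on the opposite strand, so the source of its reads is uncertain.

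Of the 68 members that rose in wild type mock 25 lay in the middle and 36 in the distal end. ptprr, a receptor-type protein tyrosine phosphatase (74226447 to 74271898), had 0.993, 0.820 and 1.35 CPM at 5 h and 6.91, 5.69 and 4.94 CPM at 24 h in wild type mock (2.48 ± 0.21). tafa5a (27251865 to 27398414) rose from 1.18, 1.23 and 1.88 CPM to 5.78, 4.04 and 5.29 CPM (1.83 ± 0.19), and ms4a17a.11 rose by 1.31. Named genes had to show no overlap between the groups compared, so the gap between the 2 ages is part of their choice. Genes nearest the boundary were mixed in wild type mock. Outside it iqsec3a rose (1.81, edgeR adjusted p = 4.57e-11), while tnni1d (0.10) and b4galnt3a (-0.74) were not called. Just inside, alg12 fell (-0.52, edgeR adjusted p = 0.000488) and so did creld2 (-0.40, edgeR adjusted p = 0.000898), while zbed4 rose (0.20, edgeR adjusted p = 0.0211). Of the 17 tested members of the proximal edge 7 were higher and 8 lower. Of the 27 heterochromatin genes 22 fell in each of the 4 time contrasts (median -0.53 in wild type mock). In each wild type contrast 3 rose, and in each Meevs contrast 2. Over all tested genes 33.5% were lower in wild type mock. That share is not matched for level, and genes with the most reads outside the arm were lower more often, as given above. lmnb1, a lamin, fell by 0.64 ± 0.06 on the log2 scale (edgeR adjusted p = 2.52e-09) and cbx5, an HP1 protein, by 0.26 ± 0.06 (edgeR adjusted p = 0.000489).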

How the data were processed

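Values are whole-number counts of reads per gene as deposited by the authors, not normalized. The build was GRCz11, and the listed tools, without roles, were STAR 2.7.9a, featureCounts 1.6.3, cutadapt 1.16 and DESeq2 1.36.0, per the submitters' processing notes. The library kit was directional, per the labels' protocols; counting settings, strand and multi-mapping reads included, were not found in the labels. Positions, names and biotypes came from the authors' deposited annotation, and 1410 members were also in the reference table of gene names. No genome sequence was used here.

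Genes with low counts were removed by filterByExpr, 22340 genes were scaled by TMM and fitted with 1 mean per group over 24 libraries in edgeR 4.0.16 (R 4.3.3), and p-values of the quasi-likelihood test were Benjamini-Hochberg adjusted over all of them. Changed genes were called at an adjusted p under 0.05. Log2 fold changes and SE are from this fit, and CPM uses TMM-scaled totals. The script was tested on simulated counts.

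Named members are those with the largest called fold changes, a mean log2 CPM of 0 or more and groups that do not overlap, up to 10 each way for the mock genotype contrasts and up to 6 or 5 for the others; the members with the most reads; the genes nearest the boundary; and the largest called in all genotype contrasts, and up to 4 heterochromatin genes by adjusted p. Runs, interaction calls, low-count members, the 5 AL935186 members and some ms4a17a and heterochromatin genes were picked for the text once their values were known. The members, windows and lists were chosen with earlier results of these data known.

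Replicates of a group differed by more than sampling noise (chi-square per degree of freedom 4.28 to 23.2), so each library counts as 1 replicate. Same-numbered libraries did not deviate together: in 0 of 12 comparisons was every correlation over 0.1 (range -0.12 to 0.14). Alternatives were other size factors, TMM without chromosome 4, DESeq2 1.42.0, other filters, the groups compared alone, the replicate number as a block, each library left out, other bounds of the arm, and, chosen after seeing the data, 4 libraries left out together, members that overlap no gene, and shares without the AL935186 members.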

Additional observations from a re-analysis of the deposited data

Results flagged for a closer look

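For 19 members the UVB effect differed between the genotypes by edgeR's interaction test, in 8 at 5 h and 12 at 24 h, with tbc1d22a in both (5.12% and 2.4% of all tested genes). Values are differences of log2 fold changes, Meevs minus wild type. At 5 h the effect was lower in Meevs for tbc1d22a (-1.60), CPNE8 (-1.47), the noncoding RNA CR388132.1 (-1.56), CABZ01066312.1 (-0.54) and creld2 (-0.49). It was higher in Meevs for znf1102 (1.67), si:dkey-23a23.2 (0.86) and si:cabz01032454.3 (0.85).

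At 24 h it was higher in Meevs for 7 ms4a17a genes: ms4a17a.2 (3.97), ms4a17a.12 (3.70), ms4a17a.1 (2.62), ms4a17a.5 (2.33), ms4a17a.7 (1.37), ms4a17a.11 (1.1) and ms4a17a.9 (0.68). It was also higher for znf988 (2.84), si:ch73-56d11.5 (1.89) and si:dkey-61p9.11 (1.47), and lower for si:ch211-22k7.9 (-2.18) and tbc1d22a (-0.54). znf988 had between 1 and 3 counts in each Meevs mock library at 24 h. It, si:ch211-22k7.9, ms4a17a.2, ms4a17a.12, ms4a17a.1 and ms4a17a.5 had a mean under 0 log2 CPM, the floor for named genes. Their large differences thus rest on few reads. The call of CR388132.1 was lost without any 1 of 4 libraries (WT mock replicate 1, WT UVB replicate 2, Meevs UVB replicate 2 or Meevs mock replicate 3), that of creld2 in 6 of the alternatives, each leaving out 1 library, and that of si:dkey-61p9.11 in 9. The calls of CABZ01066312.1 and, at 24 h, tbc1d22a were each lost in 3, and that of si:cabz01032454.3 without 4 libraries. Groups of 3 libraries are too small for a test of single outlying libraries.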

How the results depend on the processing

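No called value of a named gene changed sign, but the balance of higher and lower members did: with only genes of at least 0 mean log2 CPM the arm's genotype calls in mock turned to more higher than lower, and its median to 0.03 at 5 h and 0.08 at 24 h (0.04 in UVB at 24 h). The arm's median for genotype in UVB at 5 h ranged from -0.09 to 0.02 when each library was left out. With only genes of at least 0 mean log2 CPM the genotype counts of members were 150, 157, 150 and 159 (mock 5 h, mock 24 h, UVB 5 h, UVB 24 h), UVB in wild type at 24 h 3 and in Meevs at 24 h 25, the time counts 182, 154, 207 and 207 (wild type mock, Meevs mock, wild type UVB, Meevs UVB), and the 24 h interaction 6. Arm zinc fingers then gave 42, 34, 33 and 37 for genotype, and 63 (wild type mock) and 68 (Meevs UVB) for time. The middle gave 93, 99, 86 and 91 for genotype and 124, 101, 135 and 136 for time. Fewer members are tested with this filter, and how much of the drop in counts comes from that was not tested. Fewer are also tested when only members that overlap no other gene are kept: genotype 136, 144, 144 and 154, UVB in Meevs 50 and 22, time 172, 152, 208 and 209. With only the groups compared, UVB in wild type at 5 h gave 13 (3 higher, 10 lower). DESeq2 gave 13 for the 5 h interaction (7 higher, 6 lower), 0 of the genotype by time calls, and 1 (wild type) and 6 (Meevs) heterochromatin genes for UVB at 24 h; the cause was not tested. With starts over 30 Mb the 5 h interaction gave 4. Heterochromatin genes called for UVB in Meevs at 24 h were 5 with the level filter, and 7, 3 and 4 (wild type 5 h, wild type 24 h, Meevs 24 h) without 4 libraries.

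The arm's share of counts with TMM totals was 0.257% and 0.214% in wild type mock (5 h, 24 h), 0.216% in wild type UVB at 24 h, and 0.304% and 0.294% in Meevs UVB and mock at 5 h. Without the 5 AL935186 members it was 0.258% and 0.226% in wild type mock, 0.255% and 0.251% in Meevs UVB and mock at 5 h, and 0.239% and 0.229% at 24 h.

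Leaving out each library, counts ranged from 9 to 29 for UVB in wild type at 5 h, 51 to 69 in Meevs at 5 h and 24 to 39 in Meevs at 24 h. For heterochromatin genes the ranges were 0 to 3, 0 to 2, 7 to 12 and 1 to 3 (wild type 5 h, wild type 24 h, Meevs 5 h, Meevs 24 h). With the replicate block genotype counts were 229, 251, 248 and 259, UVB 24, 8, 82 and 37, time 283, 234, 342 and 334, and interactions 9, 11 and 0. The numbers do not pair the libraries. Members have few reads, with a median of -0.12 log2 CPM. Named genes lost their call in 24 of the other tests and in 83 that left out a library, pacsin2 for UVB in wild type at 24 h in 11.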
